A study of Mus musculus with 72 samples.

Results

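PAX5 binding was mapped by ChIP-seq in resting B cells from the spleens of C57BL/6 mice, in 2 libraries from wild-type (WT) animals with intact Hmgn1 and Hmgn2 (Hmgn1+/+n2+/+) and in 2 libraries from double-knockout (DKO) animals that lack both genes (Hmgn1-/-n2-/-). The cells are labelled as resting, no treatment is named, and the sources used here do not say whether a library came from 1 mouse or from pooled mice. The study describes ChIP-seq replicates of its fibroblasts and stem cells as biological, while the labels of the B cell libraries do not say whether they came from separate animals. If they did not, p-values measure technical spread only. The question was where PAX5 peaks lie in WT cells and which of them remain when the HMGN proteins are missing. Peaks of the 4 lists that overlapped by at least 1 bp were merged into 362 sites. The 151 sites called in both WT libraries, termed PAX5 sites below, are the subject of the description, and they were drawn from a study of 64 peak lists with 1156918 peaks in all. A PAX5 site persisted when at least 1 DKO library also had a peak in it, and it was lost when neither did. Loss here means that the deposited list held no peak, not that binding was absent. The PAX5 lists start at a −log10 q of 2.22, and they are stricter than the q threshold named in the study's methods.

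PAX5 is a paired-domain transcription factor that commits lymphoid progenitors to the B cell lineage and is kept on in mature B cells. It activates genes of B cell receptor signalling and of the B cell surface, among them Cd79a and Blnk, and it holds down genes of other lineages such as Csf1r and Notch1. Its paired domain reads a long and loosely conserved DNA element, and the best kept stretch of that element contains the core GCNTGAC or close forms of it. HMGN1 and HMGN2 are small nucleosome-binding proteins that lie at active promoters and enhancers.

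The sequences below are shown because they hold the clearest form of the element under the summits. Each is a window of 40 bases of the mm9 genome, turned so that the match reads 5′ to 3′, with the letters CGTGACC in capitals. This form was picked after the sequences had been seen, and 15 PAX5 sites held it within 100 bp of the summit. The 13 windows outside untranslated regions are given, named by the nearest start of a protein-coding gene, which need not be the gene that PAX5 acts on. The first 6 are from sites that persisted and the other 7 from sites that were lost.
Ruvbl1 site, chr6:88415327-88415366, plus strand: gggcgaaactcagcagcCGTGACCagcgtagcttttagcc
Bfsp2 site, chr9:103351658-103351697, plus strand: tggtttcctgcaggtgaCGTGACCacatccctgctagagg
Pabpc1 site, chr15:36538993-36539032, minus strand: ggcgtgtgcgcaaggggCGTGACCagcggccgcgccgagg
Hist1h2bj site, chr13:22142987-22143026, plus strand: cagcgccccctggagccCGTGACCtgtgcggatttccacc
Bdkrb1 site, chr12:106835643-106835682, minus strand: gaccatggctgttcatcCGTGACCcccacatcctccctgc
Sykb site, chr13:52667887-52667926, minus strand: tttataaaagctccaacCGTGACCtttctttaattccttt
Smu1 site, chr4:40721466-40721505, minus strand: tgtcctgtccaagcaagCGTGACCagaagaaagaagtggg
Fnbp1 site, chr2:30938496-30938535, minus strand: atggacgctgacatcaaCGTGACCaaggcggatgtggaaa
1700008O03Rik site, chr7:51615696-51615735, plus strand: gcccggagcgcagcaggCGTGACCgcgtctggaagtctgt
Zfc3h1 site, chr10:114910827-114910866, minus strand: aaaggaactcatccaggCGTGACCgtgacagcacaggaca
Gse1 site, chr8:123062800-123062839, minus strand: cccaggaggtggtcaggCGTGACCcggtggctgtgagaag
Enpp6 site, chr8:48026784-48026823, minus strand: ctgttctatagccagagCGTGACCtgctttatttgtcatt
Chdh site, chr14:30950286-30950325, plus strand: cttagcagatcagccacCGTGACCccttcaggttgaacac

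The match lay at the centre of the peak in several of these sites. At Ruvbl1, which encodes a DNA helicase of chromatin remodelling complexes, it was 8 bp from the summit, and at the 1700008O03Rik site it was 1 bp away. The wider Ruvbl1 window below marks that match and an ETS core, CGGAAG, before it. The Blnk window is shown beside it because Blnk, the adaptor that links the B cell receptor to its downstream kinases, is a known PAX5 target, and its site holds neither form of the PAX5 core and no ETS core in this window.
Ruvbl1 site, chr6:88415279-88415399, plus strand: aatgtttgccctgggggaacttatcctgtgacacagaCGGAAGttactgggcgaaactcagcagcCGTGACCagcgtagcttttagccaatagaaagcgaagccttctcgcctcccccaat
Blnk site, chr19:41037635-41037755, plus strand: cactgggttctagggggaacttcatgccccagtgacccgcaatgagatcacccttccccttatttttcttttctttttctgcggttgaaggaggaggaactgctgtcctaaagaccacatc

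PAX5 peaks were far fewer in DKO than in WT cells. The WT libraries had 231 and 280 peaks and the DKO libraries 28 and 34, so every WT list was longer than every DKO list. The mean number was 8.24-fold lower in DKO. On the log2 scale the change was -3.04 with a standard error of 0.17 (2 libraries per genotype, limma over 16 antibodies, adjusted p = 0.00190, 95% interval -3.57 to -2.52). Lower numbers in DKO passed the same test for 56.2% of the 16 antibodies of the study, so a fall in itself was not particular to PAX5. An exact permutation test of 2 libraries against 2 cannot give a p below 0.333, and the test therefore rests on a spread shared by the antibodies. The labels name a single B cell input library for each genotype. A difference between the inputs is not part of that spread and cannot be told apart from genotype. Peak numbers depend on depth and enrichment as well as on binding, and fewer bound sites and weaker enrichment over all sites cannot be told apart from these lists.

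The fall was larger for PAX5 than for 3 of the other 4 factors mapped in the same cells. IKAROS, ETS1 and IRF8 are transcription factors of lymphoid development, and OCT2 is a POU factor of B cells. Their mean peak numbers went from 10036 to 4935 for IKAROS, from 4542 to 1159 for ETS1, from 877 to 327 for IRF8 and from 68.5 to 14.0 for OCT2. The log2 change of PAX5 minus that of IKAROS was -2.03 ± 0.20 (SE) (limma, adjusted p = 0.00875 over 4 comparisons). The difference was -1.61 ± 0.23 from IRF8 (adjusted p = 0.0123) and -1.07 ± 0.18 from ETS1 (adjusted p = 0.0130). The difference from OCT2 was -0.69 with a 95% interval of -1.94 to 0.55 (adjusted p = 0.174), so no order of PAX5 and OCT2 was found. These 4 comparisons were added after the peak numbers had been seen.

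Promoter and distal peaks both fell. A peak was counted as promoter when a protein-coding transcript started no more than 1000 bp away. The WT libraries had 61 and 72 promoter peaks of PAX5, and the DKO libraries had 3 and 5. Promoter peaks were lower in DKO for 50% of the 16 antibodies by limma. Distal PAX5 peaks went from 170 and 208 to 25 and 29, and distal peaks were lower for 62.5% of the antibodies. PAX5 had a log2 change of -4.10 at promoters (limma, adjusted p = 0.00304) and of -2.80 elsewhere (adjusted p = 0.00184). The log2 ratio of promoter to distal peaks per library changed by -1.29 from WT to DKO (standard error 0.20, limma over 16 antibodies, adjusted p = 0.0246, a comparison added after the values were seen). This call rested on chromosome Y, where all of the PAX5 peaks were distal. Without it distal peaks went from 146 and 187 to 17 and 17, a log2 change of -3.28 (limma, adjusted p = 0.00134). The promoter-to-distal ratio then changed by -0.82 (limma, adjusted p = 0.0973, 95% interval -1.66 to 0.03), so a difference between the 2 kinds of peak was not established. The DKO side of this ratio rests on 8 promoter peaks in 2 libraries.

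**Figure D1:**
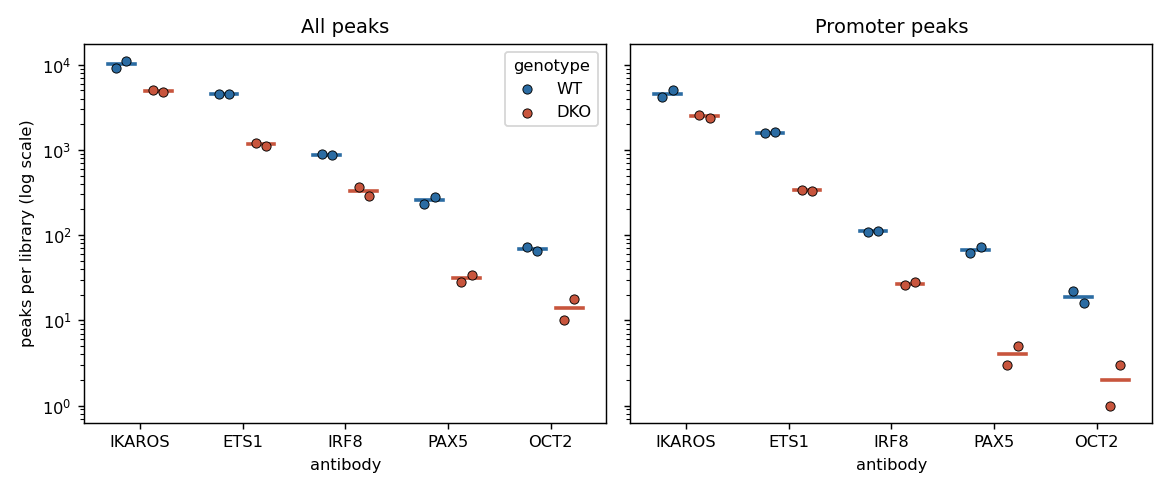
Number of peaks per library (log scale) for the 5 factors of resting B cells, all peaks at left and promoter peaks at right. Points are single libraries, 2 per genotype, and bars their means, and PAX5 falls from 231 and 280 in WT to 28 and 34 in DKO.

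Chromosome Y held a group of PAX5 sites that stood apart from most of the rest. Of the 151 sites, 16 were on chromosome Y, and 15 of these lay between positions 2780811 and 2886444 (mm9). Fold enrichment at the 16 was low, with a median of 2.29 in WT replicate 1 and 2.21 in WT replicate 2, against 6.75 and 7.06 at the other sites. The reads stacked at their summits were many all the same, with a median pileup of 201 (15 sites, the strongest not solved) and 196 (16 sites) against 31.0 and 30 elsewhere, because the local background was also high, at 95.3 and 87.6 reads against 3.87 and 3.39. Peaks of unrelated antibodies fell on the same places. A peak of histone H1 in embryonic fibroblasts covered 10 of the 16 against 5 of the 135 other sites, and a peak of OCT2 covered 12 of 16 against 7 of 135. Of the 16, 8 persisted, and 5 had a peak in every library. The part that repeated sequence or copy number has in these peaks was not tested. High background was not confined to chromosome Y. In WT replicate 1 it was 72.8 reads at a site near Gm773 and 48.8 at a site near 3830403N18Rik, both on chromosome X. It was 41.1 at a site near Akr1c21 on chromosome 13. All 34 promoter sites lay outside chromosome Y. Most shares are also given for the 135 sites outside it, which still hold such high-background places.

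Of the 151 PAX5 sites, 34 persisted, or 22.5% (exact 95% interval 16.1 to 30). Without WT replicate 1, where WT replicate 2 alone defines the sites, 38 of 280 did (13.6%). Both DKO libraries had a peak in 16 of the 34, DKO replicate 1 alone in 8 and DKO replicate 2 alone in 10. Outside chromosome Y, 26 of 135 sites persisted (19.3%, 13 to 26.9), 11 of them in both DKO libraries. These intervals cover counting error only. By the same rule 58.2% of 7730 IKAROS sites, 40% of 3293 ETS1 sites, 51.4% of 675 IRF8 sites and 31.2% of 48 OCT2 sites persisted. For OCT2 the share was 23.7% of 38 sites outside chromosome Y.

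DKO peaks seldom lay at new places. Of the 28 peaks of DKO replicate 1, 28 overlapped a peak of WT replicate 2 and 25 a peak of WT replicate 1. Of the 34 peaks of DKO replicate 2, 30 overlapped WT replicate 1 and 30 WT replicate 2. Among the 362 sites, 0 had peaks in the 2 DKO libraries without a WT peak, and 2 were seen in DKO replicate 2 alone. They lay in an intron of 5730469M10Rik on chromosome 14, with a fold enrichment of 5.17, and in the chromosome Y group, with 1.45. For comparison, 65.4% of the peaks of WT replicate 1 overlapped one of WT replicate 2, and 53.9% of those of WT replicate 2 overlapped one of WT replicate 1. Calls therefore differed between libraries of the same genotype too.

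Persistence was concentrated among the stronger sites. A site persists only if its DKO peak passes a q threshold, and weaker sites start closer to it. The gradient is therefore partly built in and is given as a description. The 135 sites outside chromosome Y were put in order of their mean −log10 q in WT and split into 5 classes of 27. In the 3 weaker classes, up to a −log10 q of 14.4, 2, 1 and 1 sites persisted. In the fourth class 9 of 27 persisted, and in the strongest class, from 19.1 to 68.4, 13 of 27 did. All 11 sites with a peak in both DKO libraries were in the upper 2 classes, 3 and 8. Within the strongest class 14 sites still had no DKO peak, so strong and lost sites overlapped.

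**Figure D2:**
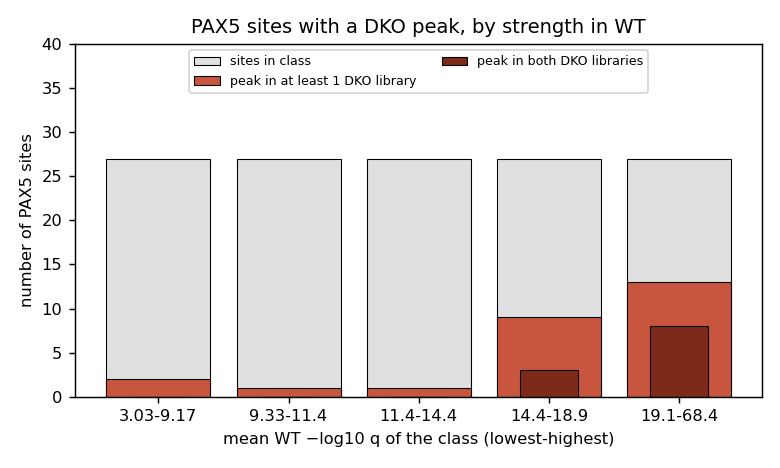
Number of PAX5 sites outside chromosome Y (vertical axis) in 5 classes of 27 sites by mean WT −log10 q (horizontal axis), with those that had a peak in at least 1 or in both DKO libraries coloured. Persisting sites number 2, 1, 1, 9 and 13 from the weakest to the strongest class, a gradient that is partly built in because a DKO peak must pass a q threshold.

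Median fold enrichment in WT was slightly higher at persisting than at lost sites. The median of the mean WT fold was 7.21 at the 34 persisting and 6.65 at the 117 lost sites, a log2 ratio of 0.12 with an SD of 0.06 between the ratios of the 2 WT libraries. Outside chromosome Y the log2 ratio was 0.26, without WT replicate 1 it was 0.22 and without DKO replicate 2 it was 0.19. For peaks with a fold of at least 4 it was 0.29, and for −log10 q in place of fold it was 0.87. Of the 26 persisting sites outside chromosome Y, 23 had a lower mean fold in DKO than in WT, and the median log2 ratio of DKO to WT was -0.43. Every DKO fold lay below both WT folds at 19 of the 26, or 73.1%, and at 6 of the 11 sites called in all 4 libraries, or 54.5%. The same was true of 84.0% and 84.7% of the persisting sites of the other 4 factors pooled, so the lower folds were not a feature of PAX5 alone.

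The share that persisted was higher among the strongest peaks of each list. When each library was reduced to its 28 strongest peaks by −log10 p, the length of the shortest list, the 2 WT libraries shared 16 sites, of which 11 persisted (68.8%). Outside chromosome Y, with 20 peaks in each list, it was 7 of 11 (63.6%). The shorter lists also hold stronger WT sites, so length and strength cannot be told apart here. The weakest of those 28 peaks had a −log10 p of 28.4 and 27.9 in the WT libraries but 7.54 and 11.2 in the DKO libraries. Of the 28 strongest peaks of WT replicate 1, 27 overlapped any peak of WT replicate 2, 16 any of DKO replicate 1 and 13 any of DKO replicate 2. For WT replicate 2 the numbers were 25 with WT replicate 1 and 12 and 12 with the DKO libraries. At the 19 sites outside chromosome Y called in both WT libraries and in DKO replicate 2, the median background was 3.87 and 3.89 reads in WT and 5.76 in DKO replicate 2, and the median pileup was 37.0, 42.0 and 37.0. Stacked reads of DKO replicate 1 could not be recovered from its values, and its depth is unknown.

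The strongest PAX5 site was the Ruvbl1 promoter at chr6:88415203-88415510. Its fold enrichment was 16.2 and 15.9 in WT and 16.5 and 12.2 in DKO, so the 2 genotypes overlapped. Vps26b, a retromer subunit, had a site in its intron at chr9:26834345-26834589 that was as steady, with 6.40 and 5.96 in WT and 6.30 and 5.81 in DKO. A site 29503 bp from Syt2 at chr1:136576156-136576374 had 7.59 and 7.58 in WT and 7.85 in DKO replicate 2, with no peak in DKO replicate 1.

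At 6 further named sites outside chromosome Y called in all 4 libraries, Blnk among them, both DKO values lay below both WT values. The site in the intron of Lbh, chr17:73274461-73274720, went from 11.2 and 13.7 to 5.51 and 5.92. An intergenic site 168514 bp from Gm10293, chr3:52247860-52248193, went from 9.38 and 10.1 to 5.43 and 5.41. Introns of Bfsp2, a lens filament protein, and of Plekhm3 held 2 more. The Bfsp2 site, chr9:103351457-103351727, had 9.85 and 10.8 in WT and 5.33 and 7.10 in DKO, and the Plekhm3 site, chr1:64972239-64972547, had 9.23 and 12.4 in WT and 5.42 and 5.96 in DKO. Irgm1 encodes an interferon-inducible GTPase, and its promoter site, chr11:48684770-48685016, had 10.3 and 12.2 in WT and 7.55 and 9.14 in DKO.

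A further group of strong sites had a peak in a single DKO library. DKO replicate 1 alone called the sites in introns of AF064781, chr4:57694508-57694749, and Sergef, chr7:53862466-53862725, with 4.44 and 5.53 there against WT means of 8.01 and 9.89. It also called the sites near Elof1, chr9:21927795-21928057, and Glrx3, chr7:144768062-144768276, with 5.56 and 6.85. DKO replicate 2 alone called the Otud3 promoter, chr4:138469919-138470122, with 6.41 against 6.98 and 9.61 in WT. The remaining 6 of the 20 strongest persisting sites were on chromosome Y, with folds from 1.62 to 4.38 over all libraries.

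Sites as strong as these were lost. The site 16444 bp from Smu1, a spliceosome-associated protein, at chr4:40721400-40721630, had fold enrichments of 13.9 and 12.3 in WT and no DKO peak. It also had no peak of the other 4 factors, and 2 matches of GCNTGAC with 1 of CGTGACC under it. The site near Cenpe, a kinetochore motor, at chr3:134854859-134855115, had 10.6 and 10.8. ETS1 and IRF8 had peaks in all 4 of their libraries at that place, so the place still gave peaks in DKO cells.

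Promoters made up 4 of the next lost sites. Prkab2, a subunit of AMP-activated kinase, had 12.7 and 9.72 at chr3:97462069-97462347. Atad2, an ATPase with a bromodomain, had 9.51 and 14.2 at chr15:57966569-57966930. The shared promoter region of Ewsr1, an RNA-binding protein, and Rhbdd3 had 10.9 and 10.8 at chr11:4999169-4999461. Rgl2, a Ral exchange factor, had 11.9 and 10.8 at chr17:34066367-34066643. None of the 4 had a PAX5 peak in a DKO library. IKAROS had peaks at the Ewsr1 site in both of its DKO libraries, and ETS1 had one at the Prkab2 site in DKO replicate 2. The Atad2 and Rgl2 sites had no DKO peak of the other 4 factors.

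The rest of the strongest lost sites were distal. A site 10743 bp from the start of Irf8, chr8:123249295-123249515, had 7.05 and 9.25. A site 62531 bp from Lmo2, a partner of haematopoietic transcription factors, at chr2:103735265-103735612, had 7.80 and 9.45. An intron of Itpr1, an intracellular calcium channel, had a site with 10.7 and 6.81 at chr6:108499592-108499941. The remaining lost sites among the 15 strongest were near Gm773, Fnbp1, Slc22a8, Dclre1a, Ccng2 and 1700008O03Rik, with folds from 4.04 to 10.3. The Gm773 site, chrX:53524941-53525121, had a high local background of 15.5 and 15.6 reads in WT. Each of the other 4 factors had a WT peak there with its summit 0 bp away.

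**Figure D3:**
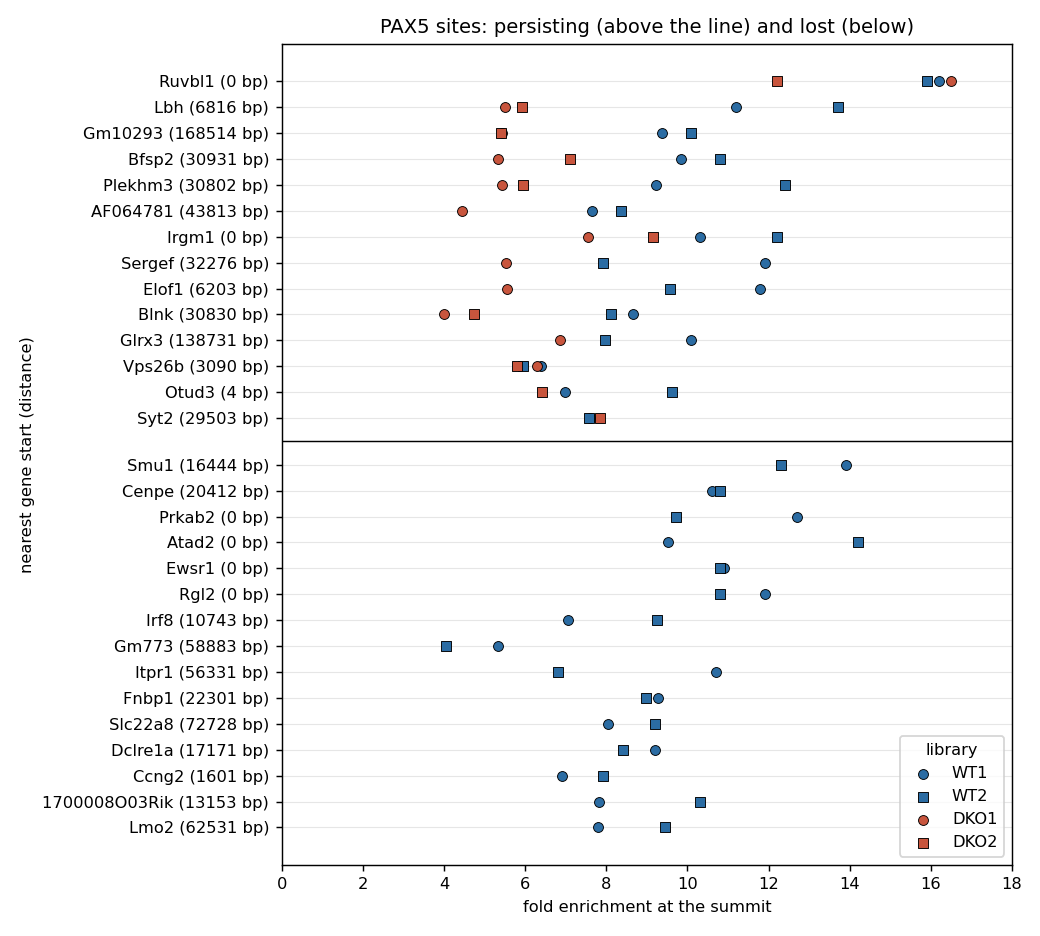
Fold enrichment at the summit (horizontal axis) in each library for the strongest PAX5 sites outside chromosome Y, named by the nearest gene start with its distance. The 14 persisting sites are above the line and the 15 strongest lost sites below it, where only WT points exist, and at Ruvbl1 the DKO values of 16.5 and 12.2 lie on either side of the WT values of 16.2 and 15.9.

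Most of the well-known PAX5 targets carried no site in this short list. Among 22367 protein-coding genes, 0.402% had a PAX5 site in the gene or up to 1000 bp from it, 90 genes in all. Of 20 genes that PAX5 is known to activate, 2 had a site (10%), Blnk and Ciita. Of 11 genes that it is known to repress, 0 had a site. The list of 21 B cell transcription factors had 0, although IKAROS had a WT peak at all 21 and ETS1 at 16. Over all protein-coding genes an IKAROS peak was present at 20.6% and an ETS1 peak at 14.6%. Of 20 B cell receptor signalling genes, 1 had a site (Blnk), and of 12 genes of MHC class II antigen presentation, 2 had (Ciita and H2-DMb2). All 20 and all 12 had an IKAROS peak, read against the same 20.6%. These counts are small, and the lists overlap. An IKAROS or ETS1 peak needed at least 1 WT library here, while a PAX5 site needed both. A gene without a site in so short a list may still be bound.

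The Blnk site persisted, and the sites of Ciita and H2-DMb2 were lost. The Blnk site, in an intron at chr19:41037537-41037808, had fold enrichments of 8.67 and 8.11 in WT and 4.0 and 4.73 in DKO. ETS1 had a peak there in all 4 libraries, with folds of 6.94 and 10.1 in WT and 5.94 and 5.76 in DKO. IKAROS had peaks in WT alone, of 7.14 and 6.01. Ciita, the master activator of MHC class II genes, had a PAX5 site in an intron at chr16:10516148-10516424 with 6.39 and 6.81 in WT. ETS1 stayed there in DKO, with 8.78 and 9.28 against 14.9 and 10.8 in WT. IKAROS had 17.5 and 18.2 there in WT, 5.83 in DKO replicate 1 and no peak in DKO replicate 2. The site near H2-DMb2, a peptide-loading chain, at chr17:34279955-34280181, had 5.78 in each WT library, and both IKAROS and ETS1 had peaks there in all of their libraries.

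Further genes of these lists had a PAX5 site farther away, where they were the nearest gene start. The site 28756 bp from Lyn, the kinase that starts B cell receptor signalling, had 6.61 and 9.56 in WT and was lost. The site 10195 bp from Syk, annotated as Sykb, had 4.75 and 5.52 in WT and 3.34 in DKO replicate 1. With Irf8, 3 of the 20 activated and 3 of the 20 receptor signalling genes were nearest to a PAX5 site, beside 136 of 22225 genes (0.612%). Cd79a, the signalling chain of the receptor, had a peak in WT replicate 2 alone, with a fold of 4.34. A site within the gene or 1000 bp of it was found at 0 of 147 genes with a ribosomal protein symbol and 0 of 67 replication-dependent histone genes. The 147 were taken by symbol alone and include genes named as pseudogenes. By nearest start it was 1 of 147 (Rpl28-ps4) and 1 of 67 (Hist1h2bj).

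The labelled cell type was checked with the peaks of the other factors. IKAROS and ETS1 had a WT peak at 8 and 7 of 9 B cell marker genes, and neither had one at 6 T cell or 5 myeloid genes, beside 20.6% and 14.6% of all genes. Each had a peak at 1 of 3 plasma cell genes. PAX5 itself had a peak at 1 of the 9 B cell genes, Cd79a, in a single library.

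PAX5 sites were mostly distal. Of the 151, 34 were at promoters (22.5%, 16.1 to 30), 16 of them with a start site inside the peak. The summit lay between genes at 85 sites, in an intron at 49, in an untranslated region at 14 and in a coding exon at 3. The median distance to a protein-coding start was 14400 bp outside chromosome Y. Promoter sites had a median GC content of 63.2% against 49.8% at distal ones, within 100 bp of the summit. Embryonic fibroblasts had H3K27ac at 26 of the 34 promoter sites (76.5%) and at 13 of the 101 distal ones (12.9%). Over all 45968 protein-coding starts, windows of the median site width overlapped such a peak at 46.1%.

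Promoter and distal sites persisted at rates that the counts could not separate. Outside chromosome Y, 5 of 34 promoter sites persisted (14.7%, 4.95 to 31.1) and 21 of 101 distal sites (20.8%, 13.4 to 30). The 5 promoters were those of Ruvbl1, Irgm1, Otud3, Supt7l and Pabpc1. Supt7l is a subunit of SAGA-type complexes, and Pabpc1 binds poly(A) tails.

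Nearly all PAX5 sites had a peak of another B cell factor. Of the 151 sites, 136 (90.1%, 84.1 to 94.3) overlapped a WT peak of at least 1 of the 4 factors. Windows of the same width placed 5000 bp to either side of the sites outside chromosome Y did so at 14 of 270 (5.19%), all of them with IKAROS. ETS1 was there at 121 sites (80.1%), IKAROS at 88 (58.3%), IRF8 at 60 (39.7%) and OCT2 at 19 (12.6%). The IKAROS share depended on the overlap asked for, and it was 35.8% where the PAX5 summit had to lie inside the IKAROS peak and 39.1% where both IKAROS WT libraries had to call it. The OCT2 share was 7.14% without WT replicate 1 and 2.42% for peaks with a fold of at least 4. Without chromosome Y the share with OCT2 was 5.19%, 7 of 135, and the others were 82.2%, 58.5% and 34.1%. On chromosomes 1 to 19 the OCT2 share was 3.10%, 4 of 129. Sites of other factors overlapped each other too, with ETS1 at 61.2% of IRF8 and 35.0% of IKAROS sites and IKAROS at 62.7% of ETS1 sites outside chromosome Y. In the other direction PAX5 had a WT peak at 2.04% of IKAROS, 6.83% of ETS1, 11.1% of IRF8 and 31.2% of OCT2 sites. For OCT2 this was 15 of 48 sites, and 5 of 38 (13.2%) outside chromosome Y.

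ETS1 and IRF8 summits lay close to those of PAX5, and IKAROS summits farther off. The median distance between summits was 19 bp for ETS1 and 29.5 bp for IRF8, but 211 bp for IKAROS, over the 111, 46 and 79 sites outside chromosome Y where both had a peak. For OCT2 it was 4.0 bp at 7 sites, among them the lost Gm773 site of high background on chromosome X. At the 99 such sites called in both ETS1 WT libraries, the median ETS1 fold was 8.21 and the median PAX5 fold 6.98, and the PAX5 fold was the higher at 34. The ETS1 peaks there were among the stronger ones of their lists, with a median percentile of 83.0 by −log10 p. For IKAROS the median fold was 14.4 against 6.96 for PAX5 at 53 sites. Folds come from separate libraries with different antibodies, so they show which signal stood out more in its own list, not how much protein was bound.

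The other factors were found at both persisting and lost PAX5 sites. ETS1 had a WT peak at 88.5% (69.8 to 97.6) of the 26 persisting and 80.7% (72.1 to 87.7) of the 109 lost sites outside chromosome Y. For IKAROS the shares were 53.8% (33.4 to 73.4) and 59.6% (49.8 to 68.9), and for IRF8 34.6% and 33.9%. The intervals overlapped for each factor. No test of the difference was made, since the sites share libraries and are not replicates.

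**Figure D4:**
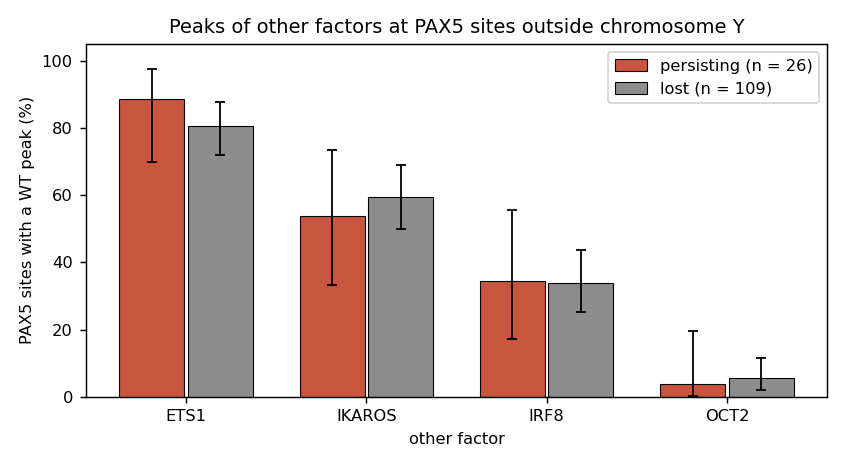
Percent of PAX5 sites outside chromosome Y that overlapped a WT peak of ETS1, IKAROS, IRF8 or OCT2, for 26 persisting and 109 lost sites. Bars are shares, whiskers exact 95% intervals for counting error, and the intervals of the 2 classes overlap for each factor.

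Many places that lost the PAX5 peak kept a peak of ETS1, IKAROS or IRF8. Of the 78 lost sites outside chromosome Y with ETS1 in both of its WT libraries, 52 (66.7%, 55.1 to 76.9) had ETS1 in at least 1 DKO library and 39 in both. For IKAROS it was 28 of 42 (66.7%, 50.5 to 80.4), and for IRF8 15 of 27 (55.6%, 35.3 to 74.5). For OCT2 it was 0 of 4. At the persisting sites the shares were 17 of 21 for ETS1 (81.0%, 58.1 to 94.6), 5 of 11 for IKAROS (45.5%, 16.7 to 76.6) and 6 of 7 for IRF8 (85.7%, 42.1 to 99.6), with intervals that overlap those at lost sites. Over all of their own WT sites, ETS1 persisted at 40%, IKAROS at 58.2% and IRF8 at 51.4%, and the last 2 lie within the intervals at lost PAX5 sites. The ETS1 peaks at PAX5 sites were stronger than most ETS1 peaks, as given above, and the part of their strength in these shares was not tested.

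A small group of PAX5 sites had no other factor. There were 14 outside chromosome Y, of which 3 persisted, near Elof1, Otud3 and Spef1. The PAX5 core in either form was under 6 of the 14 (42.9%), among them the Smu1, Chdh and Zfc3h1 sites shown above. Over all 135 sites it was under 34 (25.2%).

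The PAX5 core matched a higher share of PAX5 summits than of the windows beside them. GCNTGAC, read on either strand up to 100 bp from a summit, matched 25 of 135 sites outside chromosome Y (18.5%, 12.4 to 26.1). At positions 5000 bp to either side it matched 18 of 270 windows (6.67%), and around all 45968 protein-coding starts 7.16%. It matched 7.06% of IKAROS, 8.65% of ETS1 and 5.73% of IRF8 sites. The excess lay in the forms GCGTGAC, at 11 sites and 1 distant window, and GCATGAC, at 10 sites and 2 distant windows. GCCTGAC and GCTTGAC matched 4 sites each, and 7 and 8 of the distant windows, which are 2 for each site. CGTGACC, which overlaps GCGTGAC by 6 letters and was chosen after the sequences were seen, matched 15 sites (11.1%) and 1 distant window (0.370%), beside 2.42% of the windows around starts.

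Most PAX5 sites held neither form. The median distance of a match from the summit was 25 bp for GCNTGAC within the window. An ETS core, CGGAAG, matched 16.3% of the sites and 2.96% of the distant windows. It was under 14 of the 34 promoter sites (41.2%), against 16.3% around all starts, and under 8 of 101 distal sites. Letters of other factors were also more frequent at the sites, with GGGCGG (SP/KLF) at 12.6% against 3.33% of distant windows and ATGCAAAT (octamer) at 5.19% against 1.85%. The IKAROS letters TGGGAA matched 7.41% of the sites and 15.6% of the distant windows, and CCAAT (NF-Y) 16.3% and 26.3%. A match is a description of the sequence and does not show which protein was held there.

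**Figure D5:**
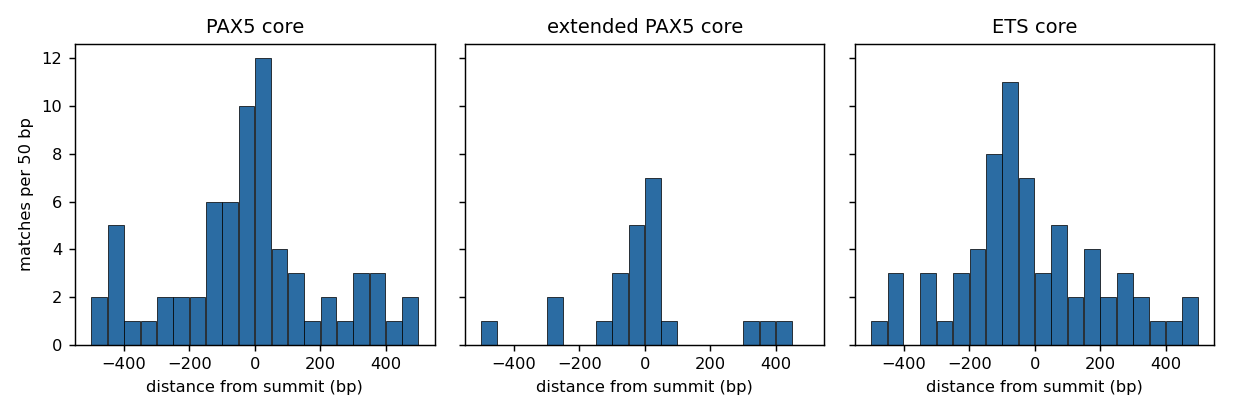
Matches per 50 bp (vertical axis) of the PAX5 core, its extended form and the ETS core at distances of up to 500 bp from the summit on the plus strand of the genome (horizontal axis), over 135 PAX5 sites outside chromosome Y. The PAX5 core peaks at the summit with 10 and 12 matches in the central 2 bins.

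Sites with the core persisted at a higher share, with intervals that overlapped. With GCNTGAC 7 of 25 sites persisted (28.0%, 12.1 to 49.4), and without it 19 of 110 (17.3%, 10.7 to 25.7). With CGTGACC 6 of 15 did (40%, 16.3 to 67.7), and without it 20 of 120 (16.7%, 10.5 to 24.6). GCNTGAC was under 5, 8, 2, 4 and 6 of 27 sites from the weakest to the strongest class. The median WT folds of sites with it were 6.83 and 7.36, and those of sites without it 6.63 and 7.05. These values are for GCNTGAC only and not for CGTGACC. The part of strength in the shares that persisted was not tested.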

How the data were processed

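ChIP-seq peak lists of PAX5 (2 WT and 2 DKO libraries) were analysed beside those of the other 15 antibodies. The authors demultiplexed with bcl2fastq 1.8.4, trimmed with cutadapt 1.16, mapped to mm9 with BWA (version given as 07.17), removed blacklisted reads and called narrow peaks per library against input with MACS2 2.1.1.20160309. The labels name a single B cell input library for each genotype. The deposited lists give fold enrichment, a ratio of pileup to local background at the summit, and −log10 p and −log10 q from the authors' Poisson test. The lowest −log10 q was 2.00 in any list and 2.22 in the PAX5 lists. Reads were not analysed here, so depth per library is unknown. Its only trace is the pileup and background, solved from fold and p where at least 85% of pileups were whole within 0.05.

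Members, gene lists and tests were chosen with earlier results of these data known. Sites were annotated with GENCODE vM1 (mm9) in Python 3.11.15 with pandas 2.3.3 and pysam 0.24.0. The log2 peak numbers were compared with limma 3.58.1 in R 4.3.3 over 16 antibodies, without a block and with Benjamini-Hochberg adjustment at 0.05. Shares have exact Clopper-Pearson 95% intervals from scipy 1.17.1. Named sites are the 20 strongest persisting and 15 strongest lost sites by mean WT −log10 q, those in DKO alone, and those of the gene lists. Scripts were tested on simulated data.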

Additional observations from a re-analysis of the deposited data

How the results depend on the processing

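The fall in PAX5 peak number passed the threshold under all 13 alternatives, with log2 changes from -3.63 to -2.90. These included stricter q and fold, base pairs, merged peaks, chromosomes 1 to 19, no chromosome Y, the resting B cell antibodies alone and a trended variance. With each PAX5 library left out in turn the change was between -3.18 and -2.90. A replicate block gave -3.04 with adjusted p = 0.00314. The labels say nothing of what a replicate number shares, and deviations of same-numbered libraries correlated at r = 0.23 over 16 antibodies and at r = -0.26 over the 5 of resting B cells. With 2 numbers per group and no label that ties them, the numbers were not taken as pairs.

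The share of sites that persisted was 10.6% where both DKO libraries had to call the site and 68.8% with lists of equal length, and 13.6% to 17.2% with 1 library left out. The number of sites was between 151 and 280 with 1 library left out, since 1 WT library then defines them, 280 without WT replicate 1 and 231 without WT replicate 2. The share at promoters rose to 31.8% within 5000 bp of a start. The share with another factor was 80.8% where both WT libraries of that factor had to call it. The share with the core was 26.5% within 250 bp and 2.65% for the longer AAGCNTGAC, and 9.93% for CGTGACC. The log2 ratio of strength between persisting and lost sites was 0.29 with a fold of at least 4, 0.26 on chromosomes 1 to 19 and without chromosome Y, 0.87 by −log10 q, and 0.11 to 0.22 with 1 library left out. The share with IKAROS was 35.8% and 39.1% under stricter overlaps. The exclusion of chromosome Y, the motif CGTGACC and the tests of one change against another were chosen after seeing the data. Without chromosome Y the change in the promoter-to-distal ratio was -0.82 in place of -1.29 and lost its call (limma, adjusted p = 0.0973). No value changed direction.

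Precision is limited by 2 libraries per genotype, DKO lists of 28 and 34 peaks, and unknown depth. A site without a peak may hold signal under the threshold.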
